A study of Mus musculus with 6 samples.

Results

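This account concerns 9 genes of prostaglandin and leukotriene metabolism, taken by gene symbol from a table of 36333 genes counted in mouse pancreas, and all 9 had a row. The genes are Pla2g4a, Ptgs1, Ptgs2, Ptges, Ptges2, Ptges3, Hpgd, Ptger4 and Alox5ap. RNA sequencing was performed on pancreas of wild-type (WT) mice, with 3 libraries after saline and 3 after cerulein, both given by intraperitoneal injection. Cerulein, an analogue of the gut hormone cholecystokinin that overstimulates the enzyme-secreting acinar cells, was injected 10 times in a volume of 200 µl at 200 µg/kg/h, and the pancreas was collected once the last injection had been given. No gene was altered in either group, and strain, age and sex were not given in the sources used here. The labels do not say that the libraries of a group came from separate mice, so p-values measure the spread between these libraries, which may be partly technical.

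Prostaglandins are lipid messengers made from arachidonic acid, which phospholipases free from membranes. The cyclooxygenases encoded by Ptgs1 and Ptgs2 turn it into a short-lived intermediate, from which terminal synthases make prostaglandin E and the other prostanoids. Prostanoids act close to where they are made, through G protein-coupled receptors, and are taken up and inactivated by the dehydrogenase encoded by Hpgd. A parallel branch turns arachidonic acid into leukotrienes, with the Alox5ap product presenting it to 5-lipoxygenase. Ptgs2 is known as the inducible cyclooxygenase of inflamed tissue, including pancreatitis, whereas Ptgs1 is present at rest in many cells.

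Total counts per library lay between 5335117 and 7610775, and 1 count was worth 0.117 to 0.257 CPM (counts per 1000000 counts of a library whose size was scaled by the trimmed mean of M values, TMM). All 9 acinar markers were read in every library, with a summed level of 237321 (replicate 1) to 434541 CPM in saline and 155846 to 197992 CPM in cerulein. The sum is carried by the digestive enzyme genes, and Amy2a5, an amylase gene on the list, stood at only 0.936 to 1.66 CPM in cerulein. Saline replicate 1 stood apart from the other saline libraries. Its counts differed from theirs by a chi-square of 46.5 and 39.0 per degree of freedom, against 8.66 between saline replicates 2 and 3 and 8.08 to 14.6 among the cerulein libraries. It also held the highest sum of 9 neutrophil markers, 223 CPM, where saline replicates 2 and 3 held 19.8 and 43.2. Without that library the 4 called members kept their calls, with log2 fold changes of 2.32 for Ptgs2, 1.05 for Ptges, 1.38 for Ptges3 and -3.15 for Hpgd, and Alox5ap was called in addition.

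All 9 members passed the filter on low counts. At an adjusted p under 0.05, 3 members were called higher after cerulein (Ptgs2, Ptges and Ptges3), 1 was called lower (Hpgd), and 5 were not called. Of the 12441 genes tested in the same fit, 28.7% were called higher and 27.1% lower, so 3 and 1 of 9 members called do not set these genes apart as a group. The median log2 fold change was 0.36 over the members, with a range from -2.92 to 3.07, and -0.00 over all genes tested. The groups did not overlap for 5 of 9 members, against 63.0% of all genes tested. The balance over all genes, 3574 higher and 3373 lower, depended on the scaling: upper-quartile factors gave 2895 and 4190, and library size alone gave 5181 and 1449. Under those scalings the median gene stood at a log2 fold change of -0.20 and 0.56. Values are given on the TMM scale unless another is named.

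The stretch before and just after the transcription start of the 4 called members is printed here because these are the genes whose RNA differed between the groups. Sequences are from RefSeq (build GRCm38.p6), whose table held a start-site window for 8 of the 9 members (9 windows, as 2 starts of Pla2g4a are in it). Each stretch runs 5′ to 3′ along the gene, with 250 bases before the start and 30 after it. Capitals mark matches, on either strand, to the motifs searched. Ptgs2 lies at chr1:150099781-150100060 (plus strand), Ptges at chr2:30903268-30903547 (minus), Ptges3 at chr10:128058732-128059011 (plus) and Hpgd at chr8:56294302-56294581 (plus). GENCODE vM21 has the same start for Ptgs2, a start 28 bases upstream for Ptges3 and one 33 bases downstream for Hpgd. The Ptges window is at 1 of 4 transcript starts in GENCODE, 26.6 kb inside the gene from its outermost start, and the counts per gene do not show which start was used.
Ptgs2: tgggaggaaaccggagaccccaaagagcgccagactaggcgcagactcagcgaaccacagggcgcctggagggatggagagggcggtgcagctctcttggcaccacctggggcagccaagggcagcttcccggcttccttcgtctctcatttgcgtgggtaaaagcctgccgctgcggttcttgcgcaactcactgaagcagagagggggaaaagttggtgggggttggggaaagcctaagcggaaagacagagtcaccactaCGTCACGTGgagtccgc
Ptges: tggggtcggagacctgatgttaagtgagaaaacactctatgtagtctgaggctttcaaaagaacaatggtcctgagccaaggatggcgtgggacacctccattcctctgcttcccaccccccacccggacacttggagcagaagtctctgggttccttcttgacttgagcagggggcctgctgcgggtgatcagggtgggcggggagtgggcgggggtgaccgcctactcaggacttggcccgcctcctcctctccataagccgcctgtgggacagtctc
Ptges3: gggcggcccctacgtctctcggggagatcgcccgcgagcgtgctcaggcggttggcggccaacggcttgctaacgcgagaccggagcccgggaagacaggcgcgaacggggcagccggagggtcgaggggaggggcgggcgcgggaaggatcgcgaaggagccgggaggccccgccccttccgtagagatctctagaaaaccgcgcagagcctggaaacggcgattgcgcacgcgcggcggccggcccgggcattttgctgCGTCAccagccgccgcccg
Hpgd: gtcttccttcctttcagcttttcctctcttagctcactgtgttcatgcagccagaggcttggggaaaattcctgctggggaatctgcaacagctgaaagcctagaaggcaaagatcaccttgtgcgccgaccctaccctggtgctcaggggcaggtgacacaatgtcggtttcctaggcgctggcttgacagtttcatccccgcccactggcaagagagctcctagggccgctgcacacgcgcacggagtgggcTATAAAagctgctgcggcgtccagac

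The motifs searched over the full windows of 300 bases were the TATA box (TATAAA), the E-box (CACGTG), the cAMP response element (TGACGTCA) and its core (TGACG), the AP-1 site (TGANTCA), the kappa-B consensus and the serum response element. The Ptgs2 window held an E-box and a core of the cAMP response element that overlap. They begin at bases 17 and 14, counted with the start itself as the first base. The E-box was also in the Ptges2 window, 77 bases before the start, and is held by 7.15% of 32851 windows. The core was also in the Ptges3 window, and is held by 20.8% of windows. The Hpgd window had a TATA box beginning at base 5 from the RefSeq start by the same count, which is 29 bases before the GENCODE start. This motif was found in 13.6% of windows. Its letters also matched, but on the opposite strand (TTTATA), 200 bases before a second start of Pla2g4a. The Ptges window matched none of these letters. The full cAMP response element (1.79% of windows), AP-1 site (7.81%), kappa-B consensus (4.51%) and serum response element (1.63%) matched in no member's window. A match is a description of the letters only.

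Pla2g4a encodes the calcium-responsive cytosolic phospholipase that frees arachidonic acid. It lies on chromosome 1, 149829618 to 149961290 (mm10; positions of genes are those of GENCODE vM21), 138.7 kb from Ptgs2 with no other protein-coding gene between them. Its level was 1.76, 2.25 and 1.29 CPM in saline replicates 1, 2 and 3 and 2.13, 1.76 and 1.01 CPM in cerulein replicates 1, 2 and 3. The groups overlapped, and the log2 fold change was -0.12 ± 0.46 (SE; adjusted p = 0.847, edgeR). With 28 counts in all saline libraries and 41 in all cerulein libraries, the ratio of summed counts was 0.923 with an exact 95% interval of 0.557 to 1.55, which covers counting error only. A difference within those bounds was not detectable at this depth. Its sign changed to 0.44 with library size alone, to 0.07 without saline replicate 2 and to 0.14 without cerulein replicate 3.

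Ptgs1, the constitutive cyclooxygenase, lies on chromosome 2, 36230426 to 36252272. It stood at 8.94, 4.96 and 3.34 CPM in saline and 4.26, 3.98 and 3.03 CPM in cerulein. Saline replicate 1 was the highest library, and the other saline libraries fell among the cerulein ones or just above them. The log2 fold change was -0.66 ± 0.36 (SE; adjusted p = 0.137, edgeR). Without saline replicate 1 it was -0.18, and without saline replicate 3 it was -0.92 and passed the threshold.

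Ptgs2, the inducible cyclooxygenase on chromosome 1, 150100031 to 150108227, rose in each cerulein library. It was read by 1, 7 and 5 counts in saline, or 0.135, 1.58 and 1.29 CPM, and by 62, 63 and 60 counts in cerulein, or 7.34, 7.37 and 7.58 CPM. The groups did not overlap, and the cerulein libraries were close to one another (7.43 ± 0.129 CPM, SD, n = 3) while saline replicate 1 held a single count. The log2 fold change was 3.07 ± 0.50 (SE; adjusted p = 1.78e-04, edgeR). The ratio of summed counts was 8.97, with an exact 95% interval of 5.12 to 17.2. The gene kept its call in all 14 alternative settings. The size rested in part on the saline libraries, with 2.32 without saline replicate 1 and 3.71 without saline replicate 2.

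**Figure D1:**
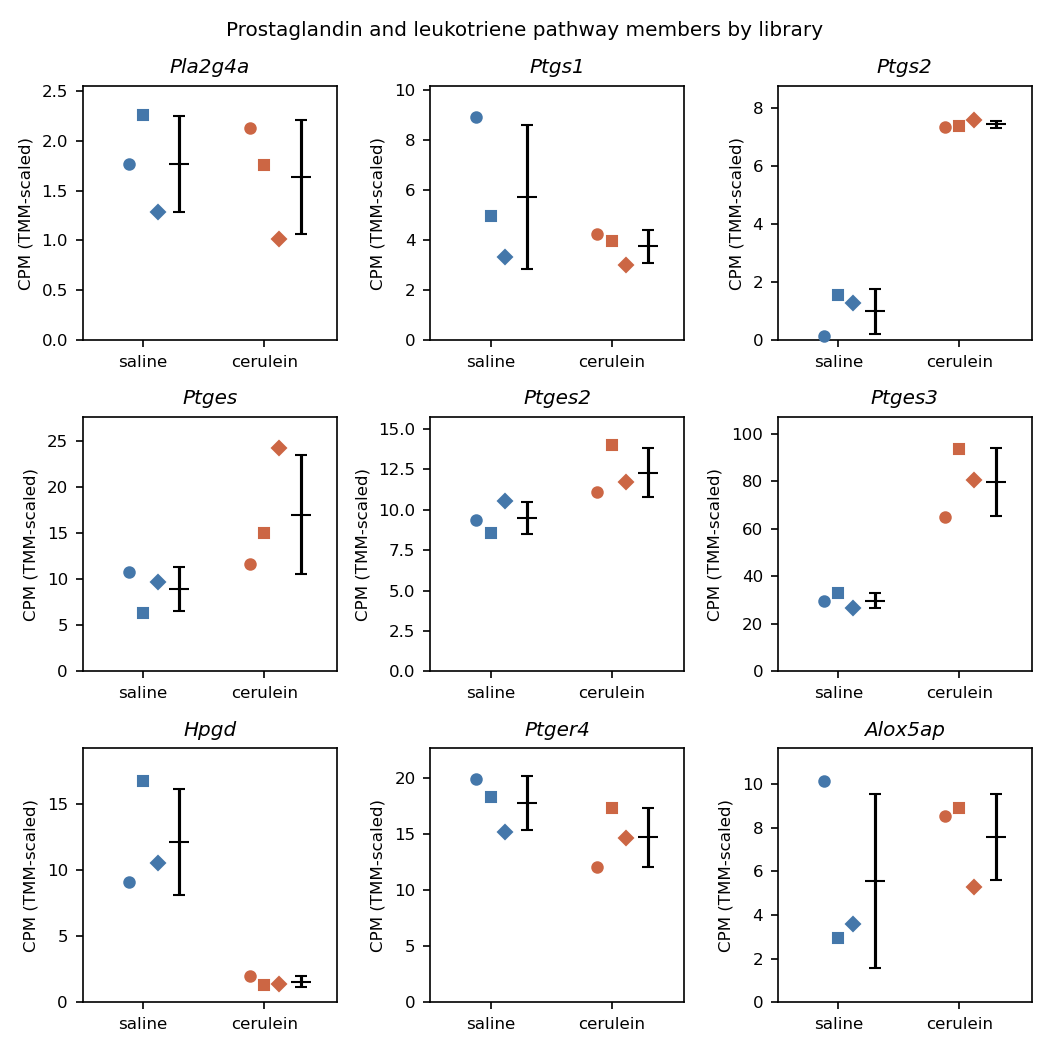
Level of each of the 9 members in CPM (TMM-scaled; linear axes from 0) in 3 saline (blue) and 3 cerulein (orange) libraries, with circles, squares and diamonds for replicates 1, 2 and 3 and black bars for the mean ± SD. The 3 cerulein libraries lie above all saline libraries for Ptgs2, Ptges, Ptges2 and Ptges3 and below them for Hpgd; for Alox5ap and Ptgs1 saline replicate 1 is the highest library.

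The terminal synthases of prostaglandin E are encoded by Ptges, a membrane enzyme that is usually induced together with Ptgs2, by Ptges2, a second membrane-associated enzyme, and by Ptges3, a cytosolic protein also known as the Hsp90 co-chaperone p23. Ptges (chromosome 2, 30889471 to 30929863) stood at 10.8, 6.31 and 9.77 CPM in saline and 11.7, 15.1 and 24.2 CPM in cerulein. The groups did not overlap, but the gap between the nearest libraries was small and cerulein replicate 3 was far above the other two. The log2 fold change was 0.90 ± 0.29 (SE; adjusted p = 0.0189, edgeR). It fell short of the threshold at 0.58 without cerulein replicate 3, at 0.71 without saline replicate 2 and at 0.69 with upper-quartile factors.

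Ptges2 (chromosome 2, 32395896 to 32405772) was at 9.34, 8.56 and 10.5 CPM in saline and 11.1, 14.0 and 11.7 CPM in cerulein. These groups did not overlap either, but the log2 fold change of 0.38 ± 0.21 (SE; adjusted p = 0.142, edgeR) did not pass. It passed with library size alone, at 0.94. Ptges3 (chromosome 10, 128058954 to 128077272) had the highest counts of the 9 members, with 29.8, 32.9 and 26.5 CPM in saline and 64.7, 93.4 and 80.6 CPM in cerulein. Every cerulein library was above every saline library, with a log2 fold change of 1.42 ± 0.17 (SE; adjusted p = 1.50e-05, edgeR). The call held in all 14 alternatives, between 1.22 with upper-quartile factors and 1.98 with library size alone.

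Hpgd (chromosome 8, 56294585 to 56321043) encodes 15-hydroxyprostaglandin dehydrogenase, the first enzyme of prostaglandin breakdown. It fell in each cerulein library, from 67, 74 and 41 counts in saline (9.07, 16.7 and 10.5 CPM) to 17, 11 and 11 counts in cerulein (2.01, 1.29 and 1.39 CPM). The groups were far apart, with the highest cerulein library at 2.01 CPM and the lowest saline library at 9.07 CPM. The log2 fold change was -2.92 ± 0.34 (SE; adjusted p = 9.99e-06, edgeR). Summed counts were 7.40-fold lower, with an exact 95% interval of 5.21 to 10.7. The call held in all 14 alternatives, between -3.15 and -2.32. Among the cell type markers, 8 of 9 acinar genes were also lower, and whether Hpgd changed with the share of acinar RNA was not tested. In bulk tissue, fewer cells of a type and less RNA per cell cannot be told apart.

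Ptger4 (chromosome 15, 5206661 to 5244187) encodes the EP4 receptor for prostaglandin E, which raises cAMP. It stood at 19.9, 18.2 and 15.2 CPM in saline and 12.1, 17.3 and 14.6 CPM in cerulein. The groups overlapped, and the log2 fold change was -0.29 ± 0.20 (SE; adjusted p = 0.239, edgeR). It passed as lower with upper-quartile factors, at -0.49, and turned to 0.26 with library size alone. Of its annotated exon bases, 16.5% are shared with genes on the other strand, Ttc33 and Gm15937, and reads of such bases cannot be told apart where strand was not used in counting.

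Alox5ap (chromosome 5, 149264767 to 149288153) encodes the 5-lipoxygenase activating protein, a protein of leukocytes. It was at 10.2, 2.93 and 3.60 CPM in saline and 8.52, 8.89 and 5.30 CPM in cerulein. Saline replicate 1 lay above all cerulein libraries and the other saline libraries below them. The log2 fold change was 0.36 ± 0.42 (SE; adjusted p = 0.493, edgeR). Without saline replicate 1 it was 1.19 and passed the threshold, while without saline replicate 2 it was 0.06. Saline replicate 1 was also the highest of the 6 libraries in the summed level of the 9 neutrophil markers, which spanned 57.5 to 129 CPM in cerulein. Of these markers 7 were tested and 1 was called higher. The 10 macrophage and monocyte markers summed to 201 to 398 CPM in saline and 530 to 627 CPM in cerulein, with 4 called higher and none lower in edgeR. Most of that rise lay in Lyz2 (mean 130 to 254 CPM) and Cd14 (20.6 to 149 CPM). The other markers of this list called higher were Ccr2 (mean 7.03 to 37.1 CPM) and Cd68 (8.54 to 18.9 CPM). Adgre1 (-0.87), Cx3cr1 (-0.69), Mrc1 (-0.28) and Csf1r (-0.25) had negative log2 fold changes without a call, and C1qa (0.09) and C1qb (0.08) were near 0. Neither list had a marker at 0 in all libraries, and the part of leukocyte RNA in the Alox5ap and Ptgs1 values was not tested. Gm19719, on the other strand, shares 13.3% of the exon bases of Alox5ap, and Gm43621 shares 3.81% of those of Ptgs1.

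**Figure D2:**
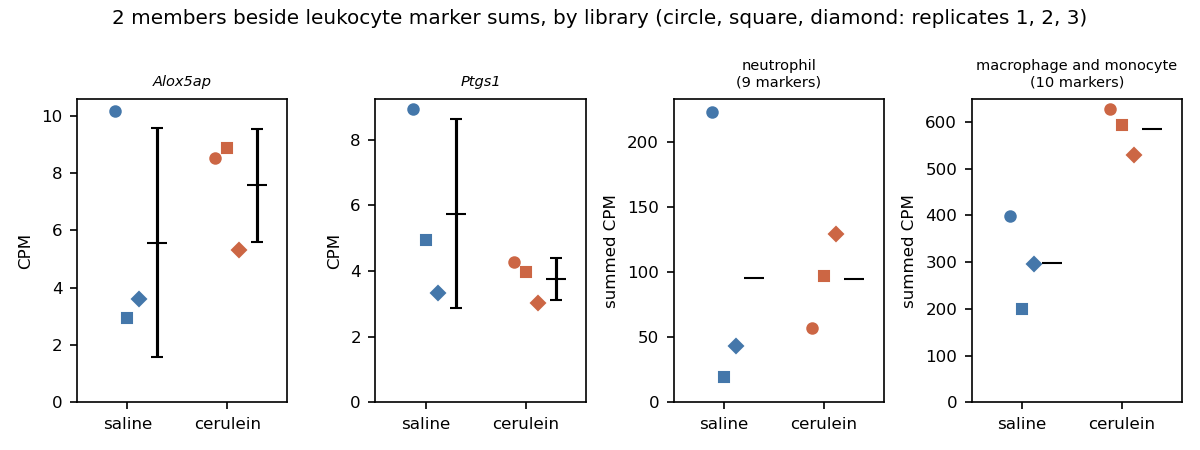
Alox5ap and Ptgs1 in CPM (mean ± SD in black) beside the summed CPM of 9 neutrophil and 10 macrophage and monocyte markers (mean in black), in 3 saline (blue) and 3 cerulein (orange) libraries on linear axes from 0. Saline replicate 1 (circle) is the highest saline library in each panel, at 223 CPM for the neutrophil sum and 10.2 CPM for Alox5ap.

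The other cell types known to carry members of the pathway were read through their markers as well. Of 7 tuft cell markers, Il25 was at 0 in all libraries and the sum spanned 2.48 to 8.13 CPM in saline and 6.27 to 7.07 CPM in cerulein. The 6 platelet markers, of which 2 passed the filter, summed to 5.41 to 9.89 CPM in saline and 11.8 to 15.8 CPM in cerulein, with 1 called higher. That gene was Pf4, at 3.36 ± 1.16 CPM in saline and 9.12 ± 2.36 CPM in cerulein (SD, n = 3). Itga2b was tested and not called, and Ppbp, Gp1ba, Gp9 and Gp6, below the filter, had lower means in cerulein. Duct markers, of which 5 of 7 were higher and 1 lower, summed to 78.1 to 96.7 CPM in saline and 796 to 1006 CPM in cerulein. The 8 stellate cell and fibroblast markers overlapped between the groups, with sums of 389 to 448 and 351 to 474 CPM. The duct, platelet and macrophage and monocyte marker sums were higher in cerulein without overlap between the groups. So were Ptgs2, Ptges, Ptges3 and, without a call, Ptges2. Groups that did not overlap, in either direction, were seen for 63.0% of all genes tested. Each of these marker lists also held genes with a lower mean in cerulein. The part of these cell types in the rises of the members was not tested.

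Per kilobase of annotated exon, which allows levels to be compared between genes, Ptges3 was the highest member in both groups, at 13.4 ± 1.44 CPM per kb in saline and 35.9 ± 6.47 in cerulein (SD, n = 3). In saline it was followed by Hpgd (7.19), Alox5ap (3.92), Ptger4 (2.67), Ptges (2.28), Ptges2 (1.87), Ptgs1 (1.48), Pla2g4a (0.276) and Ptgs2 (0.218). The library ranges of neighbours in this order overlapped, except between Ptges3 and Hpgd and between Ptgs1 and Pla2g4a. In cerulein the order after Ptges3 was Alox5ap (5.33), Ptges (4.33), Ptges2 (2.43), Ptger4 (2.21), Ptgs2 (1.62), Ptgs1 (0.967), Hpgd (0.929) and Pla2g4a (0.255). Here the ranges overlapped between Alox5ap and Ptges, Ptges2 and Ptger4, and Ptgs1 and Hpgd. Hpgd thus moved from the second place to the eighth, and Ptgs2 from the last to the sixth, above Ptgs1. Exon lengths are of all annotated isoforms together, so isoforms in use can shift these levels.

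The ratio of 2 members inside a library does not depend on how libraries are scaled. With 0.5 added to both counts, the log2 ratio of Ptgs2 to Ptgs1 counts was -5.47, -1.58 and -1.29 in saline and 0.78, 0.88 and 1.30 in cerulein. The means were -2.78 ± 2.33 and 0.99 ± 0.28 (SD, n = 3), a difference of 3.77, or 2.43 without saline replicate 1. The log2 ratio of Ptgs2 to Hpgd counts went from -5.49, -3.31 and -2.92 in saline to 1.84, 2.46 and 2.40 in cerulein. The difference was 6.14, or 5.35 without saline replicate 1 and 5.52 with 2 added to both counts. For both ratios the groups did not overlap. For 3 against 3 libraries the two-sided exact permutation test cannot go below p = 0.1, which both ratios gave, or 0.2 after Benjamini-Hochberg adjustment over the 4 ratios.

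The ratios of Ptges to the other synthase genes overlapped between the groups. The permutation test, which cannot go below p = 0.1 here, could not have called a difference in them. Ptges3 to Ptges2 was not among the 4 ratios taken, and the log2 fold changes of these genes were 1.42 and 0.38. The log2 ratio of Ptges to Ptges2 counts was 0.21, -0.43 and -0.11 in saline and 0.07, 0.10 and 1.04 in cerulein (difference 0.52, exact permutation p = 0.3, two-sided, adjusted 0.3). Cerulein replicate 3 alone lay above the saline libraries, and without it the difference was 0.20. The log2 ratio of Ptges to Ptges3 counts was -1.45, -2.36 and -1.43 in saline and -2.46, -2.62 and -1.73 in cerulein (difference -0.52, exact permutation p = 0.2, two-sided, adjusted 0.267).

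**Figure D3:**
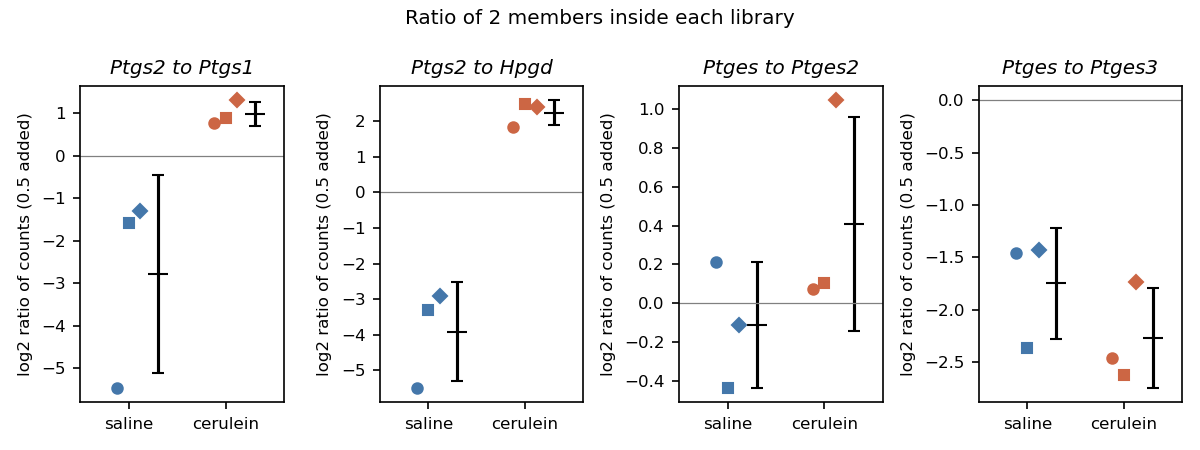
Log2 ratio of the counts of 2 members inside each of 3 saline (blue) and 3 cerulein (orange) libraries, with 0.5 added to both counts and circles, squares and diamonds for replicates 1, 2 and 3; black bars are the mean ± SD and the grey line marks equal counts. The groups are apart for Ptgs2 to Ptgs1 (difference 3.77) and Ptgs2 to Hpgd (6.14) and overlap for both Ptges ratios.

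The genes whose level followed that of a member most closely were found by the distance between log2 CPM profiles over the 6 libraries, each centred on its mean. For Ptgs2 they were Has1, a hyaluronan synthase (distance 0.602 log2 units, log2 fold change 3.02), F3, the clotting starter tissue factor (0.774, 2.77), and Rprm (0.960, 2.89). For Hpgd they were Dexi (0.360, -2.51), Meis2, a homeobox transcription factor (0.371, -2.56), and Ddx55, an RNA helicase (0.424, -2.94). The distance includes the difference between the groups, and no test was made of it.

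**Figure D4:**
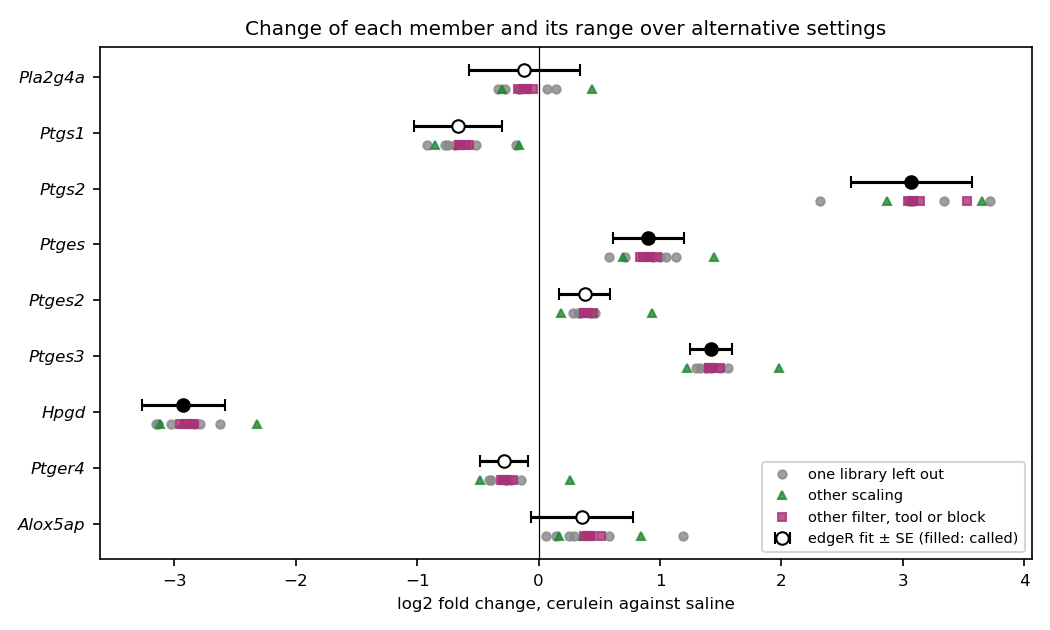
Log2 fold change of each of the 9 members, cerulein against saline, in the edgeR fit (black, ± SE, filled where called) and under 14 alternatives below it (grey circles, 1 library left out; green triangles, other scaling; purple squares, other filter, tool or replicate block). Ptgs2, Ptges3 and Hpgd stay far from 0 throughout, whereas Pla2g4a and Ptger4 lie on both sides of it.

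The rest of the eicosanoid pathway was read from 5 lists of 69 genes in all. A row was found for 68, of which 7 were at 0 in all libraries and 38 passed the filter. Of those 38, 9 were called higher, 12 lower and 17 were not called, with a median log2 fold change of -0.28. Both counts are near the background of 28.7% higher and 27.1% lower over all genes tested, whose median was -0.00, so they do not set the pathway apart. With library size alone 14 were higher and 6 lower. A count of 0 for Pla2g4b and Ptger1, which lie inside other genes, was treated as no measurement.

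Of 24 phospholipases and genes of arachidonate handling with a row, 14 were tested, 1 rose and 4 fell. Lpcat3, which puts arachidonate back into phospholipids, fell from 58.0 ± 5.20 to 26.7 ± 4.66 CPM (SD, n = 3; log2 fold change -1.12), a call lost with library size alone. Pla2g16, a phospholipase of adipose tissue, fell from 11.6 ± 2.68 to 3.33 ± 0.433 CPM (-1.77). Acsl4, which joins arachidonate to coenzyme A, rose from 25.6 ± 7.96 to 49.3 ± 9.28 CPM (0.92). The secreted pancreatic phospholipase gene Pla2g1b, named after its values were seen, fell from 2053 ± 805 to 1001 ± 32.6 CPM (-1.04), with saline replicate 1 at 1124 CPM, close to the cerulein libraries.

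Of 8 other prostanoid synthases, 4 were tested. Cbr1, a carbonyl reductase that can act on prostaglandins, fell from 35.6 ± 8.30 to 13.6 ± 2.03 CPM (SD, n = 3; log2 fold change -1.37 ± 0.21, SE). Akr1b3, an aldose reductase with prostaglandin F synthase activity, rose from 4.0 ± 0.152 to 9.22 ± 1.15 CPM (1.20 ± 0.26), and lies inside the gene model Gm14546. Tbxas1, the thromboxane synthase, fell from 3.62 ± 1.39 to 1.76 ± 0.327 CPM (-1.07 ± 0.41), and lost its call in 8 of 14 alternatives. The prostacyclin synthase gene Ptgis, named after its values were seen, was at 11.4 and 8.79 CPM with no call (-0.42).

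Among the other prostanoid receptors, 3 of 8 were tested. Ptger3 encodes the EP3 receptor, which lowers cAMP. It was at 617, 389 and 366 CPM in saline and 42.7, 40.6 and 63.6 CPM in cerulein, so that its lowest saline library was far above every cerulein library. The log2 fold change was -3.22 ± 0.26 (SE; adjusted p = 5.91e-07, edgeR), and the call held in all 14 alternatives, from -3.44 to -2.71. Ptgir, the prostacyclin receptor, rose from 2.12 ± 0.754 to 4.55 ± 1.21 CPM (SD, n = 3; log2 fold change 1.04) and lost its call in 7 of 14 alternatives. Ptger2, named after its values were seen, was at 1.06 ± 0.334 CPM in saline and 2.46 ± 0.815 CPM in cerulein. The groups did not overlap, but it was not called (1.18; adjusted p = 0.0505, edgeR). It lies inside the gene model Gm17173.

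Of 8 genes of prostaglandin transport and inactivation, 6 were tested, with 2 higher and 2 lower. Slco2a1, the transporter that carries prostaglandins into cells for breakdown, rose from 24.9, 9.24 and 10.5 CPM in saline to 45.0, 41.7 and 41.8 CPM in cerulein. Its log2 fold change was 1.47 ± 0.32 (SE; adjusted p = 0.00330, edgeR), or 2.08 without saline replicate 1, a saline library well above the others. Ptgr2, a prostaglandin reductase that acts after Hpgd, fell from 14.9, 20.3 and 19.5 CPM to 4.02, 4.45 and 4.55 CPM, with a log2 fold change of -2.06 ± 0.22 (SE; adjusted p = 6.13e-06, edgeR). A gene on the other strand shares 32.0% of its exon bases. Zadh2, another prostaglandin reductase, fell from 63.5 ± 11.8 to 43.3 ± 2.98 CPM (SD, n = 3; -0.55), but stood at 0.06 with library size alone. Abcc4, the other gene of this list called higher and named after its values were seen, rose from 3.86 ± 0.774 to 7.38 ± 1.76 CPM (SD, n = 3; 0.95). The remaining tested genes of this list, Cbr3 (-0.11) and Cyp4f18 (0.07), were not called. Hpgd and Ptgr2, which act one after the other in breakdown, both fell.

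Of 20 lipoxygenase, leukotriene enzyme and receptor genes, 11 were tested, with 4 higher and 3 lower. Aloxe3, a lipoxygenase best known from the epidermis, went from 1, 1 and 0 counts in saline to 166, 137 and 116 counts in cerulein. The ratio of its summed counts was 132, with an exact 95% interval of 36.3 to 1095, and the fitted log2 fold change was 6.85 ± 0.45 (SE; adjusted p = 7.60e-08, edgeR). Ggt1 and Dpep1, which trim the peptide of the cysteinyl leukotrienes as well as glutathione, fell, with log2 fold changes of -1.14 and -1.87, and Dpep1 lies inside the gene model Gm20388. Of their relatives, named after their values were seen, Ggt5 fell (-1.32) whereas Dpep2 rose from 1.92 ± 1.65 to 5.96 ± 1.16 CPM (SD, n = 3; 1.48). The remaining genes called higher, also named after their values were seen, were the receptor genes Fpr2 and Ltb4r1. Fpr2 rose from 2.09 ± 1.95 to 10.4 ± 2.72 CPM (2.12) and Ltb4r1 from 1.13 ± 0.623 to 4.25 ± 0.419 CPM (1.78). Alox5, the lipoxygenase served by Alox5ap, did not pass the filter and had 30 counts in saline and 20 in cerulein.

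**Figure D5:**
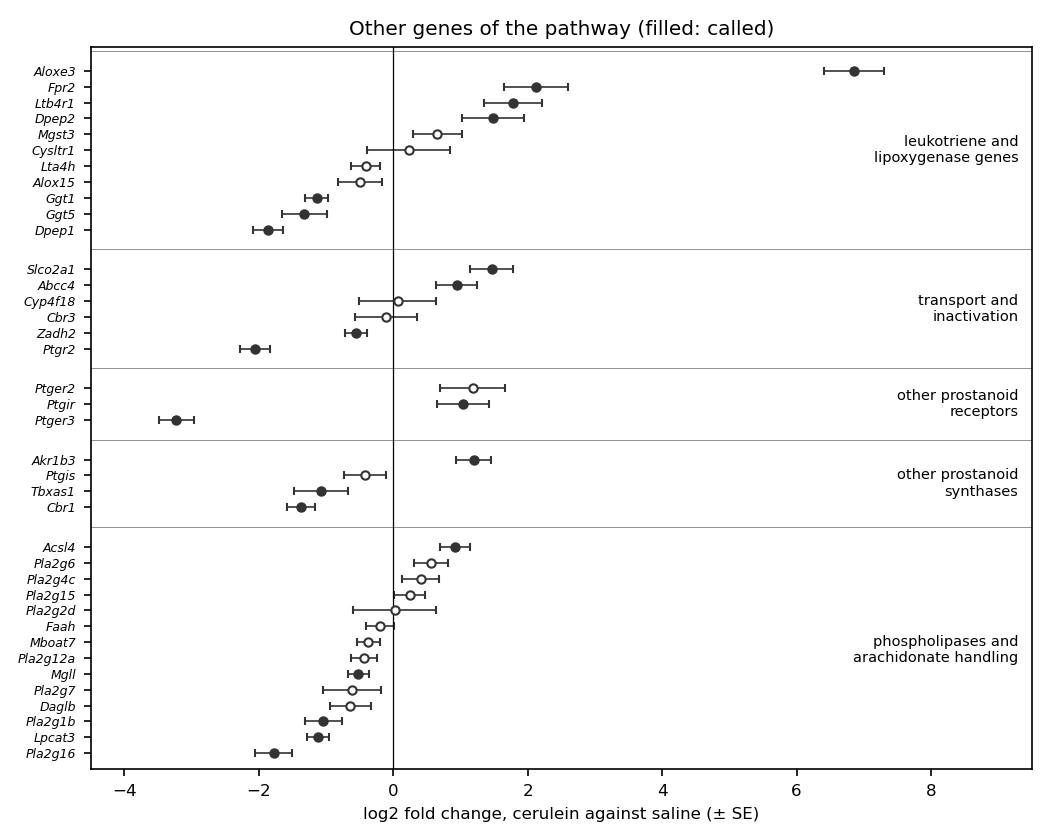
Log2 fold change, cerulein against saline, with its SE for the 38 tested genes of the 5 pathway lists, filled where called. Aloxe3 (6.85) and Ptger3 (-3.22) are the farthest from 0, and each of the 5 lists holds called genes on both sides of 0.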

How the data were processed

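The authors deposited a single table of raw counts per gene, 1 column per library, and no column belonged to another series. Trimmomatic, STAR and HTSeq were used with mm10, per the submitters' processing notes. Versions, the strand setting and the annotation were not given in the sources used here. TRIzol RNA went into TruSeq Stranded mRNA libraries, per the labels' protocols.

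Counts were used unchanged. All genes were fitted with edgeR 4.0.16 (R 4.3.3). The filterByExpr filter (minimum count 10, minimum total 15) left 12441 genes, scaling was TMM, and the two-sided quasi-likelihood F test was robust, with Benjamini-Hochberg adjustment over all genes tested and calls under 0.05. SEs were derived from F. The fit was tested on simulated data. Intervals are exact, at 95%, and cover counting error only. Libraries of 1 group differed by more than sampling noise, so none was counted as a repeat of another. The members and gene lists were chosen with earlier results of these data known. Named pathway genes are up to 3 called genes with the smallest p of each list. For Ptgs2 and Hpgd, the 3 nearest profiles (prior count 2) among genes with a named symbol are given. Alternatives covered scaling, filters, DESeq2 1.42.0, limma-voom 3.58.1, each library left out and a replicate block. Exon lengths and overlaps come from GENCODE vM21.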

Additional observations from a re-analysis of the deposited data

How the results depend on the processing

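Over the 14 alternatives, Ptgs2, Ptges3 and Hpgd kept their direction and call. With library size alone, 1449 genes were called lower in place of 3373, pathway genes called higher numbered 14 in place of 9 and lower 6 in place of 12, and Pla2g4a, Ptger4 and Zadh2 changed sign, to 0.44, 0.26 and 0.059. Members called lower numbered 2 with upper-quartile factors and 1 to 2 when a library was left out. Leaving out a library gave Pla2g4a log2 fold changes from -0.34 to 0.14. The cause was not tested. The 4 count ratios kept their direction with 2 added to both counts and without each library. The labels give both groups the same replicate numbers, with no statement that they pair. Deviations of same-numbered libraries correlated at 0.190, 0.216 and -0.150, so not every library followed its own number best, and the replicate block was not part of the design used. With the replicate block, 3673 genes were higher and 3401 lower, and 3 members were higher and 1 lower. Depth limits Pla2g4a and Ptgs2 in saline most, with 28 and 13 counts.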

Other observations

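Kit, on the mast cell marker list, had 1131 counts in cerulein replicate 1 against 96 and 96 in cerulein replicates 2 and 3, or 134 against 11.2 and 12.1 CPM, and stood at 215 to 325 CPM in saline. Kit made up most of the summed level of the mast cell list in the saline libraries and cerulein replicate 1 but not in cerulein replicates 2 and 3. On that list, Cpa3, Mcpt4, Cma1, Tpsb2, Ms4a2 and Fcer1a did not pass the filter on low counts. Hdc, the remaining marker of the list, rose from 5.05 ± 3.33 to 14.6 ± 5.77 CPM (SD, n = 3; log2 fold change 1.44 ± 0.45, SE; adjusted p = 0.0228, edgeR). Kit did not pass the test (log2 fold change -2.36 ± 1.13, SE; adjusted p = 0.142, edgeR). Of the members, Ptgs2 had 62 counts in cerulein replicate 1 and 63 and 60 in the others of its group.

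The antisense neighbours of Ptgs2 were hardly read. Ptgs2os had 2 counts in all 6 libraries together and Ptgs2os2 had 6, against 13 counts of Ptgs2 in saline and 185 in cerulein.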
